A study of Mus musculus with 4 samples.

Results

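The cells described here were dividing mesenchymal cells of the distal adult mouse sciatic nerve 3 d after resection (3 DPI). They were selected on their own transcript counts. A barcode of the 3 DPI library was a member when it had at least 200 genes and at most 10% mitochondrial unique molecular identifiers (UMIs, 1 per captured transcript), at least 3 summed UMIs of the cycle genes Mki67, Top2a, Birc5, Plk1 and Kif11, at least 5 summed UMIs of Col1a1, Col1a2 and Pdgfra, and no UMI of Sox10 (Schwann cells), Pecam1 (endothelial cells) or Ptprc (immune cells). This gave 122 cells. They made up 10.1% of the 1205 mesenchymal cells that met the other criteria. That library held 2281 barcodes past the gene and mitochondrial filters, and the whole series 12268.

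The study collected Drop-seq transcriptomes of wildtype CD1 nerves to ask which cells of the injured nerve express ligands for regenerating axons. The 3 DPI library came from distal segments of adult nerves that had been resected on 1 side, with myelin removed by beads. It is set here beside adult uninjured nerve prepared with the same beads, neonatal nerve of postnatal days 3 to 4 sorted by FACS as Hoechst-high, propidium iodide-negative cells, and neonatal nerve of postnatal days 2 to 3 prepared with beads. Each condition had 1 library, so no comparison below has a replicate or a test, and all intervals cover counting error only. Age, injury, sort and depth differed together between libraries and cannot be told apart. All tissue was digested with enzymes before capture, and the number of animals behind a library is not known here.

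Nerve mesenchymal cells are the fibroblast-like cells of the connective tissue sheaths. Those of the endoneurium lie among the axons, those of the epineurium form the outer wrapping, and perineurial cells line each fascicle. After a nerve is cut, axons distal to the cut degenerate and the tissue is cleared and rebuilt while cells divide. Dividing cells copy DNA in S phase, build the spindle and condense chromosomes in G2 and M phase, and make transcripts for each step in turn, which is why messages such as those of the DNA-untangling enzyme Top2a and the proliferation antigen Mki67 are used as marks of division.

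Of the 5 cycle genes that selected the cells, 4 share promoter letters, and their windows are printed with that of Prc1 because G2 and M genes were higher together in the data. Each is the window from 250 bases before to 50 after the gene start, 5′ to 3′ on the strand of the gene, from RefSeq on GRCm38.p6. Capitals mark the letters TTTGAA (the cell cycle homology element) and CCAAT (the CCAAT box) on either strand, and no base belonged to 2 matches in these windows.
Top2a (chr11:99024140-99024439, minus strand): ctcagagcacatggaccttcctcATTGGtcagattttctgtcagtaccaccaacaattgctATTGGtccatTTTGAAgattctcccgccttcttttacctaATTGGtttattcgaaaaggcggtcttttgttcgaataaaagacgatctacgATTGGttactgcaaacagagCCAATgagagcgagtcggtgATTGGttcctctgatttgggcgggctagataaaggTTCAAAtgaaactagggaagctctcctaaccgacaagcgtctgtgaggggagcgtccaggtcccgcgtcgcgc
Mki67 (chr7:135716330-135716629, minus strand): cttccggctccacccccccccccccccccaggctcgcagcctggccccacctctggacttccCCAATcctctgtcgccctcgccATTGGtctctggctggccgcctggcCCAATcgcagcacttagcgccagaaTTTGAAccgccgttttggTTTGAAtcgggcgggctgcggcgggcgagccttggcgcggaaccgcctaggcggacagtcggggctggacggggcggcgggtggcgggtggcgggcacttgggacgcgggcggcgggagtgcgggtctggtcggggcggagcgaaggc
Plk1 (chr7:122159185-122159484, plus strand): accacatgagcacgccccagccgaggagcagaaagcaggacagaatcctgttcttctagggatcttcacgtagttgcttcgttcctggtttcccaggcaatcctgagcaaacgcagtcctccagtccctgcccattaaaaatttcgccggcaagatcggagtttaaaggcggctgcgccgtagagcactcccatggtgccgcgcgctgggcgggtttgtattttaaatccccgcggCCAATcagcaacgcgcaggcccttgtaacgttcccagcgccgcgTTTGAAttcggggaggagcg
Kif11 (chr19:37376132-37376431, plus strand): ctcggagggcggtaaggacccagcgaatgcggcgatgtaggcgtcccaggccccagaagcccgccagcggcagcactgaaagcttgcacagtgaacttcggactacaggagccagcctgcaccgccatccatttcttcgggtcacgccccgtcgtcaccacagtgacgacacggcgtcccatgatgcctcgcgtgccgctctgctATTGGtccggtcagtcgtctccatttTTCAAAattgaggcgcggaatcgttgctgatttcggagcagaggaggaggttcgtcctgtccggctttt
Prc1 (chr7:80294201-80294500, plus strand): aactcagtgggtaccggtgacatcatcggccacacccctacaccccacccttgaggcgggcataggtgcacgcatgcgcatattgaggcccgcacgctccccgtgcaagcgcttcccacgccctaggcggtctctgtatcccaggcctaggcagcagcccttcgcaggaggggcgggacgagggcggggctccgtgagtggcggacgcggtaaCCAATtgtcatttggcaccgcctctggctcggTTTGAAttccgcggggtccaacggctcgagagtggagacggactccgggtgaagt
Prc1, which bundles the microtubules of the late spindle, was not used to select the cells. The Top2a window held 2 TTTGAA matches, which began 179 and 23 bases before the gene start, and 6 CCAAT matches. The Mki67 window held TTTGAA 116 and 98 bases before the start. In Kif11 the letters TTTGAA on the opposite strand began 19 bases before the start, and in Plk1 they began at base 31 after it. The window of Birc5, a subunit of the chromosomal passenger complex, held neither motif. Of 69 windows of 66 G2 and M genes that the sequence table matched among 80 looked up, 65.2% held TTTGAA, 73.9% held CCAAT and 55.1% held both. Among all 32851 windows the shares were 17.9%, 37.4% and 6.95%. In 48 windows of 39 S phase genes, matched among 46, TTTGAA stood in 20.8% and CCAAT in 54.2%, and the letters GCGGGAA, part of the site of E2F factors, in 39.6% against 4.6% of all windows and 5.80% of the G2 and M windows. A match is a description of these letters and not a bound site.

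The values that chose the cells were as follows. The summed cycle UMIs of the members had a median of 7 and ran from 3 to 86. Top2a was found in 78.7% of members with a median of 3 UMIs and a highest count of 48, Mki67 in 75.4% with a median of 2 and a highest of 24, and Birc5 in 82.0% with a median of 2 and a highest of 16. The mitotic kinase gene Plk1 was found in 32.0% of members and the spindle motor gene Kif11 in 33.6%, both with a median of 0 UMIs. The selection thus rested mainly on Top2a, Mki67 and Birc5. Col1a2, a chain of type I collagen, was found in all 122 members with a median of 45 UMIs. Col1a1, the other chain, was found in 97.5% of them with a median of 24.5. Pdgfra, the receptor for platelet-derived growth factor that marks nerve mesenchymal cells, was found in 55.7% of members. It was also found in 46.2% of the 938 mesenchymal cells with no cycle UMI, in 1.87% of 107 cells with at least 2 Ptprc UMIs (median 1074 UMIs per cell) and in 11.3% of 168 cells with at least 2 Pecam1 UMIs (median 4048.5 UMIs per cell), classes that should lack it. At the threshold, 22 members had a cycle sum of 3 and 36 mesenchymal cells just outside had a sum of 2. Genes of G2 and M phase outside the rule had a median of 68.1 UMIs per 10000 in the former and 30.8 in the latter. Only 2 members had a mesenchymal sum of 5, and 1 dividing cell without the other types' genes fell out at 4.

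Members were deep cells. They had a median of 5817.5 UMIs (353 to 27327) and 2582.5 genes, against 2354.5 UMIs (255 to 22375) and 1280.5 genes in the 938 mesenchymal cells with no cycle UMI, called non-dividing below, and 4380 UMIs in the 145 cells with 1 or 2 cycle UMIs. A threshold on counts selects deep cells, so levels are given as CPM (the UMIs of a gene over all UMIs of the group, times 1000000), beside UMIs per cell or values with every cell thinned to 2000 UMIs where this changed the picture. A higher share of 1 set of transcripts lowers the share of the rest in CPM. In sums over cells, fewer cells carrying a transcript and less of it per cell cannot be told apart unless the share of cells is given as well.

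The label was checked against markers of other cell types. In 11 of 122 members (9.02%) the marker list of another type had more UMIs than Col1a1, Col1a2 and Pdgfra together, compared with 60 of 938 non-dividing cells (6.40%). The list was that of vascular smooth muscle and pericytes in 8 members and that of Schwann cells in 3, and it was that of endothelial or immune cells in none. Cldn5 of the endothelial list and Ptprcap, Trbc2 and Nkg7 of the immune list were at 0 in all members. Summed over their lists, endothelial genes stood at 192 CPM in members and 199 in non-dividing cells, Schwann cell genes at 421 and 453, immune genes at 267 and 607 and smooth muscle and pericyte genes at 1281 and 1157. Among barcodes with the highest 5% of doublet scores were 7 members and 52 non-dividing cells. No member shared its barcode with a cell of another library. The rule required no UMI of Sox10, Pecam1 and Ptprc, so low levels of the other types' markers follow in part from the selection. Col1a1 was also found in 53.3% of the 107 cells with at least 2 Ptprc UMIs (1501 CPM). It was found in 72.6% of the 168 cells with at least 2 Pecam1 UMIs (1218 CPM). By this limited check most members were led by the mesenchymal genes. Results without the 11 cells led by another type are given where they differed.

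Division was rare in the mesenchymal cells of the uninjured nerve by the same rule. There, 1 of 872 mesenchymal cells was dividing (0.115%, 95% exact interval 0.00290 to 0.637%). At 3 DPI it was 122 of 1205 (10.1%, 8.48 to 12%). In the neonatal nerve it was 82 of 1160 after FACS (7.07%, 5.66 to 8.70%) and 189 of 2273 after beads (8.32%, 7.21 to 9.53%). The interval of the uninjured library lay below those of the others. Those of 3 DPI and both neonatal libraries overlapped when all cells of the rule were counted. With every cell thinned to 2000 UMIs and shallower cells left out, the shares were 0.222%, 7.99%, 7.69% and 16.4%, in the same order. At 1000 UMIs they were 0.133%, 3.51%, 4.49% and 8.34%. The order among 3 DPI and the neonatal libraries thus turned with depth and the contrast with the uninjured nerve did not. The thinning left out 454 mesenchymal cells at 3 DPI, 421 of the uninjured, 614 of the FACS and 1835 of the neonatal beads library at 2000 UMIs. Of the neonatal cells that the rule took as dividing, 45 of 82 after FACS (54.9%) and 110 of 189 after beads (58.2%) were led by another type, mostly by the Schwann cell list. Without such cells, and with all UMIs, the shares were 5.10% (3.62 to 6.97%) and 6.23% (4.96 to 7.70%), and 9.86% (8.18 to 11.7%) at 3 DPI. The interval of 3 DPI then lay above those of both neonatal libraries, at unequal depth.

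**Figure D1:**
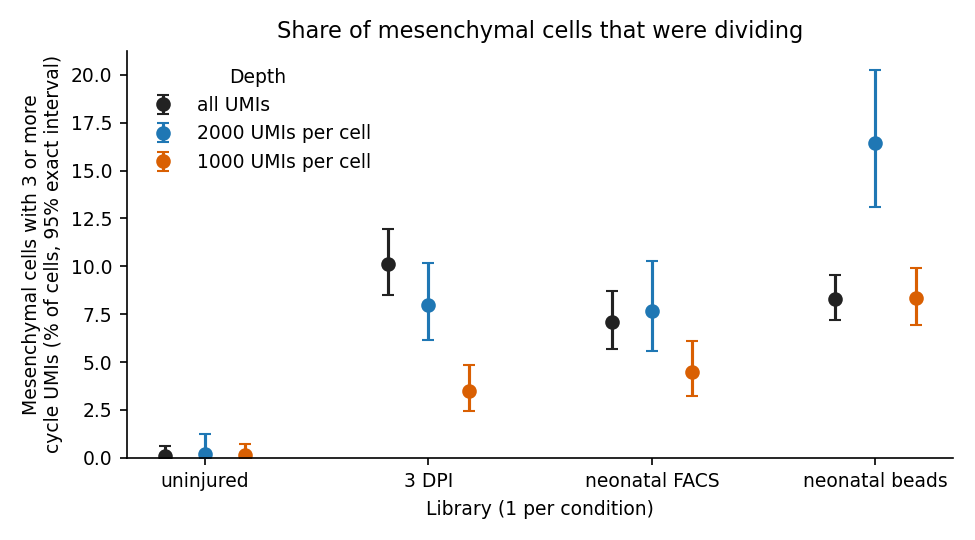
Share of mesenchymal cells with 3 or more cycle UMIs in each library (1 per condition, y axis in % of cells), with all UMIs and with every cell thinned to 2000 or 1000 UMIs. Points are shares and bars 95% exact binomial intervals. The uninjured library reaches at most 0.222% at these depths, and neonatal beads move from 8.32% to 16.4% between all UMIs and 2000.

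Transcripts of every stage of the cycle were present in the members. Lists of cycle genes outside the rule were compared between the 122 dividing and the 938 non-dividing cells, over 8910 genes with at least 50 UMIs. Of these genes, 584 (6.55%) were at least 2-fold higher in dividing cells and 689 (7.73%) at least 2-fold lower, with a median log2 ratio of 0.02. The selection on 5 cycle genes brings other cycle genes along with it, so the cycle lists describe the cells and are not independent evidence. All 40 tested genes of chromosome and spindle assembly and all 11 of mitotic entry were at least 2-fold higher, with median log2 ratios of 4.84 and 4.82. For DNA synthesis it was 20 of 22 genes (median 3.01), for replication licensing 13 of 15 (2.35) and for mitotic exit 5 of 8 (2.78).

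Among S phase genes, Pcna, the sliding clamp of the replication fork, was found in 54.1% of dividing and 10.8% of non-dividing cells. Its level was 237 CPM against 43.5, a ratio of 5.45 (4.39 to 6.79). Tyms, which makes thymidylate, stood at 163 and 16.7 CPM, and Rrm2, a subunit of ribonucleotide reductase, at 122 and 6.62. The helicase subunit gene Mcm6 had the smaller ratio of 4.28 (3.14 to 5.84). Gmnn, which keeps origins from firing again, stood at 113 and 6.94 CPM. The group called non-dividing thus held low but measurable levels of S phase transcripts. This sum can include cells in cycle that had no UMI of the cycle genes of the rule.

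G2 and M phase genes were farther apart. Cdk1, the kinase that drives mitosis, was found in 60.7% of dividing and 3.20% of non-dividing cells, with 277 and 9.78 CPM and a ratio of 28.3 (19.5 to 42.6). Its partner cyclin Ccnb1 stood at 118 and 2.84 CPM. Aurka, the centrosome kinase, stood at 55.9 and 0.946 CPM, the latter from 3 UMIs in all 938 cells, with a ratio of 59.0 (19.1 to 295). These are the transcripts of entry into mitosis, and none of the 3 was common outside the members.

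The 12 genes with the highest lower bound of the ratio were Nusap1, Prc1, Casc5, Sgol2, Ndc80, Kif23, Bub1, Kif20b, Ube2c, Mxd3, Ccna2 and Tpx2. Most serve the spindle and the kinetochore, the structure that holds chromosomes to it. Prc1 was found in 65.6% of dividing cells with a median of 2 UMIs and a highest count of 27, and in 2.67% of non-dividing cells, none with more than 2 UMIs. Its level was 510 CPM against 8.52, a ratio of 59.9 (40.6 to 91.9). Nusap1, which bundles microtubules, stood at 194 and 2.21 CPM (88.0-fold, 41.9 to 222). Kif23, a motor of cytokinesis, stood at 240 and 4.42 CPM and Ndc80, a kinetochore subunit, at 118 and 1.26. Ube2c and Cdc20, which act with the anaphase-promoting complex in mitotic exit, stood at 281 and 6.94 and at 208 and 6.31 CPM. Mxd3, a MAX-binding repressor, stood at 85.9 and 1.26 CPM. In the uninjured mesenchymal cells these 12 genes were between 0 and 2.88 CPM.

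Most members were richer in G2 and M than in S phase transcripts. Of the 122 cells, 101 had more UMIs of the G2 and M lists than of the S lists (82.8%, 74.9 to 89.0%), 20 had more of the S lists and 1 had as many of each. The lists differ in length and the 5 rule genes are mostly of G2 and M, so this balance describes the rule as much as the cells. Both sets were present in 120 of the 122. Members had a median of 102 UMIs of G2 and M genes per 10000 (0 to 276) and 31.3 of S genes (0 to 97.6). Non-dividing cells had medians of 7.73 (0 to 157) and 3.83 (0 to 217), so some of them reached the levels of members. The group called non-dividing can thus hold cells in cycle that had no UMI of the 5 rule genes, which was not tested. In the 8 members whose sums were within 2 UMIs of each other the assignment hung on few counts. Cells with 1 or 2 cycle UMIs lay between, with medians of 11.4 and 7.70.

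**Figure D2:**
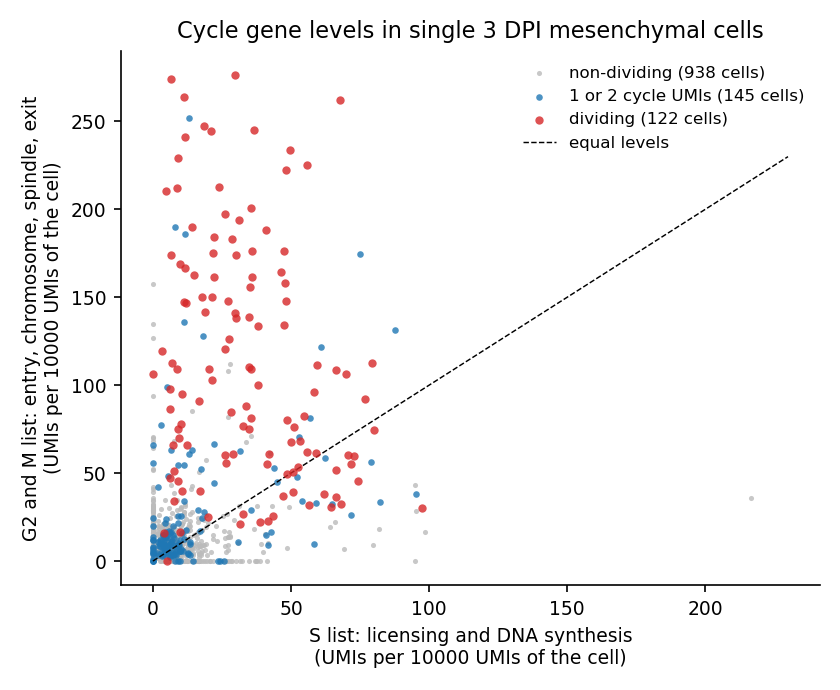
Levels of S list genes (x axis) and of G2 and M list genes (y axis) in single 3 DPI mesenchymal cells, in UMIs per 10000 UMIs of the cell, with the dashed line at equal levels. The dividing cells spread upward to 276 on the y axis, with 20 of 122 having more S than G2 and M UMIs, while most non-dividing cells lie near the origin.

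Genes that supply chromatin and the spindle were also higher. In that list 20 of 23 tested genes were at least 2-fold higher and 1 was lower (median log2 ratio 2.12). Among all genes 6.55% were higher and 7.73% lower. Tuba1b and Tubb5, subunits of the tubulin dimer, stood at 1300 and 1244 CPM in dividing cells against 234 and 358. Hmgb2, a chromatin protein, was found in 73.0% of dividing and 5.86% of non-dividing cells (383 and 19.2 CPM). The gene that was lower was the histone gene Hist1h2bc, at 24.7 CPM in dividing and 96.5 in non-dividing cells. It was found in 12.3% of the former and 18.8% of the latter.

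Genes of the ribosome biogenesis list, which also holds genes with other roles such as Ran and Hspe1, were higher as a group, at smaller ratios. Of 20 tested, 13 were at least 2-fold higher and none lower, with a median log2 ratio of 1.19. Among all genes 6.55% were higher and 7.73% lower. At 2000 UMIs per cell 10 genes of the list were higher and 1 lower, with a median of 0.98. Ncl and Npm1, abundant nucleolar proteins, stood at 1785 and 1266 CPM in dividing and 691 and 516 in non-dividing cells. Ncl was found in 93.4% of dividing and 64.1% of non-dividing cells, with medians of 9 and 1 UMIs. Ran, the GTPase of nuclear transport and spindle assembly, had a ratio of 3.64 (3.22 to 4.11) and Dkc1, the pseudouridine synthase of ribosomal RNA, one of 4.27 (3.40 to 5.36). All 20 genes of this mixed list had ratios above 1 with all UMIs, including those under 2-fold such as Ybx1 and Hspe1.

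Most G1 regulators were within 2-fold of the level of non-dividing cells. Of 14 genes of G1 cyclins, their kinases and E2F factors, 4 were at least 2-fold higher and none lower. Among all genes 6.55% were higher and 7.73% lower. Those 4 were Ccne2, Ccne1, Skp2 and Cdk2, of the late G1 step into S phase, with Ccne2 at 56.9 and 4.10 CPM. Ccnd1, the cyclin induced by growth factors, stood at 424 CPM in dividing, 289 in non-dividing and 81.9 in uninjured mesenchymal cells, and its ratio at 3 DPI was 1.47 (1.30 to 1.65). It was found in 62.3% of members and 29.1% of non-dividing cells, and at 2000 UMIs per cell in 44.9% and 27.4%. In cells with 1 or 2 cycle UMIs it stood at 367 CPM, and at 497 and 378 in members with cycle sums of 3 to 9 and of 10 or more.

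Some inhibitors of the cycle were lower in dividing cells. Of 20 genes, 6 were at least 2-fold lower and 2 at least 2-fold higher (median log2 ratio -0.71), beside 7.73% and 6.55% of all genes, so the number higher was near the share of all genes. The 6 were Cdkn1c, Cdkn2a, Gadd45a, Foxo1, Foxo3 and Trp53inp1. Cdkn1c, the p57 inhibitor, stood at 36.5 CPM in dividing, 170 in non-dividing and 218 in uninjured mesenchymal cells (ratio 0.214, 0.147 to 0.303). Cdkn1a, the p21 inhibitor, stood at 67.7 and 114 CPM (0.596, 0.448 to 0.781) and at 241 in the cells with 1 or 2 cycle UMIs. The 2 that were higher were Cdkn2c and Cdkn2d, inhibitors of the D-type cyclin kinases. Cdkn2c stood at 77.3 and 13.6 CPM, and Cdkn2d at 67.7 and 20.2.

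Transcripts typical of fibroblasts at rest were lower in dividing cells. All 27 tested genes of a list of uninjured nerve fibroblast genes had ratios below 1, and 17 were at least 2-fold lower against 7.73% of all genes, with a median log2 ratio of -1.34 (-1.27 at 2000 UMIs per cell). Gsn, an actin-severing protein, stood at 794 CPM in dividing and 3316 in non-dividing cells, and at 16981 in uninjured mesenchymal cells. Serping1, the C1 inhibitor of complement, stood at 338 and 1368 CPM. This list was drawn up with results of these libraries known.

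Among the 12 genes with the lowest upper bound of the ratio were Gas6, Sfrp4, Svep1, Itgbl1, 1500015O10Rik, Mmp3, Lbp, Clec3b, Sfrp1, Slfn5 and C3. They include secreted Wnt antagonists (Sfrp4, Sfrp1), complement C3, the matrix protease Mmp3 and Gas6, a ligand of the TAM receptor kinases first found in growth-arrested fibroblasts. Sfrp4 was found in 53.3% of dividing cells with a median of 1 UMI and a highest count of 27, and in 57.6% of non-dividing cells with a median of 1 and a highest of 128. Its level was 197 CPM against 1820, a ratio of 0.108 (0.0927 to 0.125). Thinned to 2000 UMIs, 22.4% of dividing and 51.0% of non-dividing cells had a UMI of it, so the near-equal shares with all UMIs came with unequal depth. Gas6 was found in 17.2% of dividing cells, with no more than 3 UMIs in any, and in 32.9% of non-dividing cells with up to 51. Its level was 27.9 CPM against 343 (ratio 0.0815, 0.0530 to 0.120). C3 stood at 244 and 1087 CPM, Clec3b (tetranectin) at 132 and 723, Lbp (lipopolysaccharide-binding protein) at 45.1 and 299 and Mmp3 at 35.4 and 245. The lower level was also seen per cell, without the division by all UMIs. Dividing cells had 1.5 UMIs of Sfrp4 per cell against 6.15, 0.213 of Gas6 against 1.16 and 1.86 of C3 against 3.67.

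Levels of Sfrp4, Gas6 and C3 in cells with 1 or 2 cycle UMIs lay between those of non-dividing cells and members. In cells with 1 or 2 cycle UMIs Sfrp4 stood at 668 CPM, between the 1820 of cells with none and the 176 and 210 of members with sums of 3 to 9 and of 10 or more. Gas6 went from 343 through 135 to 35.7 and 22.9 CPM in the same order, and C3 from 1087 through 684 to 357 and 171. The steps between 0, 1 or 2 and 3 to 9 cycle UMIs exceeded the counting intervals for these 3 genes. Epineurial markers summed to 1726, 1126, 821 and 588 CPM over the same steps and endoneurial markers to 591, 735, 423 and 424, and the median depth was 2354.5, 4380, 3741.5 and 10897.5 UMIs per cell. The part of compartment markers and depth in these levels was not tested.

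**Figure D3:**
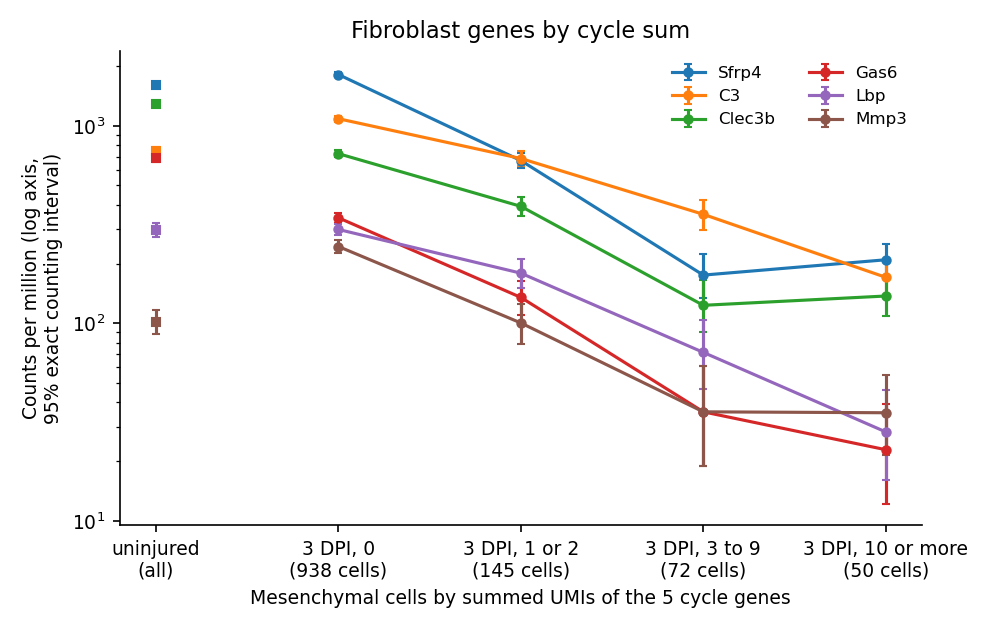
CPM (log axis) of 6 of the genes lowest in dividing cells, in all uninjured mesenchymal cells (squares) and in 3 DPI mesenchymal cells by the summed UMIs of the 5 cycle genes (circles). Bars are 95% exact counting intervals. Each gene is lower in cells with 1 or 2 cycle UMIs than in those with 0, and lower again in members.

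Col3a1 and Dcn took a smaller share of the transcripts of dividing cells, while their mean UMIs per cell were not lower. Of 27 collagen and fibril genes, 2 were at least 2-fold lower, near the 7.73% of all genes, and none higher (median log2 ratio -0.46). Of 39 genes of matrix and wound repair 12 were lower and none higher (-0.54), beside 7.73% and 6.55% of all genes. Col3a1, the chain of type III collagen, stood at 7343 CPM against 13976, but with a mean of 56.0 UMIs per dividing and 47.2 per non-dividing cell. Dcn, the proteoglycan decorin, stood at 5598 and 11531 CPM with 42.7 and 39.0 UMIs per cell. Col14a1 and Col12a1 were the 2 collagens past 2-fold, and Col14a1 was lower per cell as well (2.21 and 2.86 UMIs). Injury-related matrix genes stood close to each other in both groups. Timp1, an inhibitor of metalloproteinases, stood at 1101 and 1063 CPM (ratio 1.04, 0.964 to 1.11) against 46.5 in uninjured mesenchymal cells, and Tnc, tenascin C, at 503 and 429 against 7.67.

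The contractile and receptor lists held few genes past the fold. In the contractile list 1 of 16 genes was at least 2-fold higher, near the 6.55% of all genes, with a list median of 0.39. That gene was Tagln2, at 740 and 349 CPM. Of 28 growth factor receptors none was past 2-fold either way (-0.27), beside 6.55% of all genes higher and 7.73% lower. Pdgfra itself, part of the rule, stood at 250 and 280 CPM. Genes of the response to tissue dissociation, such as immediate early genes, had no member of 18 past 2-fold, beside the same shares of all genes, and a median of -0.07. In lists this short, such shares amount to few genes.

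**Figure D4:**
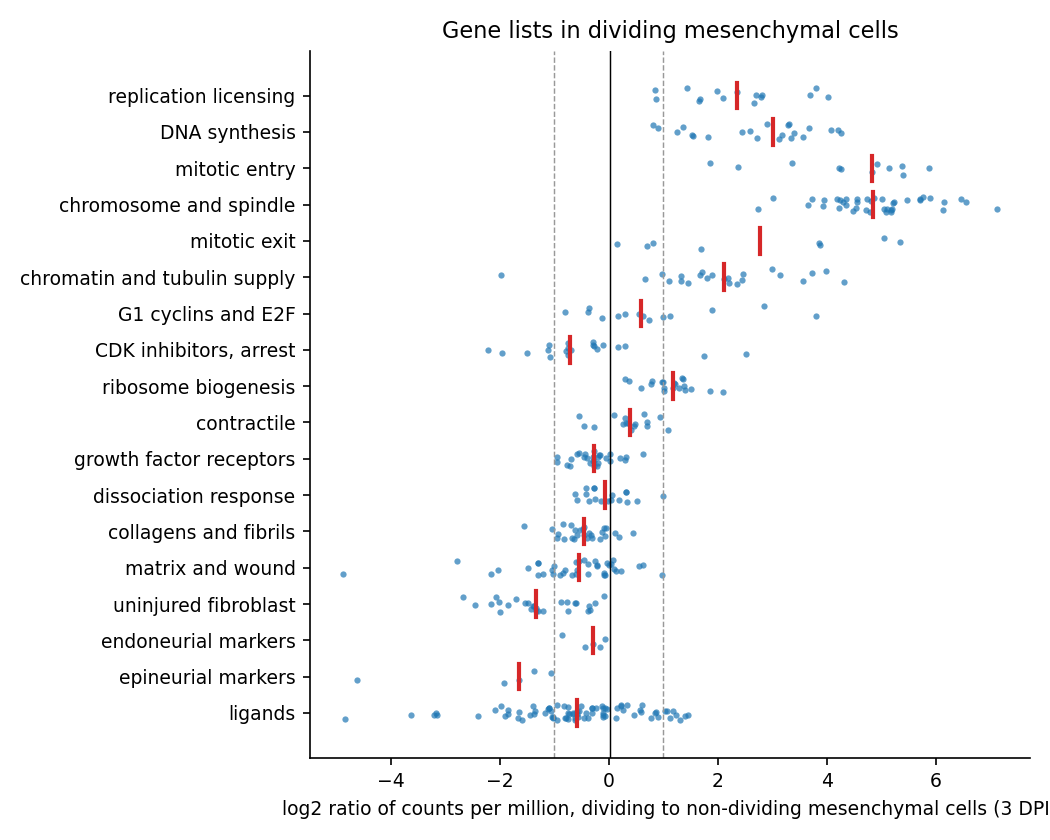
log2 ratio of CPM between dividing and non-dividing 3 DPI mesenchymal cells (x axis) for each tested gene of 18 lists (rows), with list medians as red bars, the median of all genes as a black line and 2-fold as dashed lines. The chromosome and spindle list centres on 4.84 and the uninjured fibroblast list on -1.34.

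The members held cells with markers of each of the main nerve compartments. Every cell was put with the list of endoneurial (Etv1, Wif1, Sox9, Osr2, Meox1), epineurial (Pcolce2, Dpp4, Dpt, Ly6c1, Comp), perineurial (Slc2a1, Casq2, Msln) or bridge (Dlk1, Mest) markers that had the most UMIs, where it had at least 2. The bridge list is named for the tissue that forms between the stumps of a cut nerve. Of the 122 members, 27 went with endoneurial markers (22.1%, 15.1 to 30.5%), 51 with epineurial (41.8%, 32.9 to 51.1%), 8 with bridge (6.56%, 2.87 to 12.5%), 2 with perineurial and 34 with none. Non-dividing cells had 154 of 938 endoneurial (16.4%), 436 epineurial (46.5%), 67 bridge (7.14%) and 271 with none. Read the other way, 12.4% of endoneurial-marked mesenchymal cells were dividing (8.32 to 17.5%), 9.46% of epineurial-marked (7.13 to 12.3%) and 9.09% of bridge-marked (4.01 to 17.1%). These intervals were wide and overlapped, so they do not show whether compartments differed in their share of dividing cells. Placement also depends on marker levels and depth, which differed between dividing and non-dividing cells. Exactly 2 marker UMIs placed 3 of the endoneurial, 6 of the epineurial and 1 of the perineurial members.

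At equal depth fewer members could be placed. Thinned to 2000 UMIs, 57 of 107 members had no list (53.3%) against 160 of 533 non-dividing cells (30.0%). Endoneurial markers led in 14 members (13.1%) and epineurial in 28 (26.2%), against 99 (18.6%) and 228 (42.8%) of the non-dividing cells. At that depth 22.7% of the mesenchymal cells with no list were members (17.7 to 28.4%). It was 9.59% of epineurial-marked (6.47 to 13.6%) and 9.79% of endoneurial-marked cells (5.46 to 15.9%). The markers themselves were lower in members. All 5 epineurial markers were at least 2-fold lower, against 7.73% of all genes, with Dpt (dermatopontin) at 307 and 793 CPM and Comp at 3.22 and 78.6. None of the 5 endoneurial markers was past 2-fold, with Sox9 at 135 and 142 CPM and Wif1 at 164 and 298. Of the bridge markers Mest stood at 65.5 and 246 CPM and Dlk1 at 96.7 and 97.5.

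Sfrp4, Gas6 and Igf1 were lower in dividing cells of the epineurial, bridge and unmarked groups, and close to the non-dividing level in endoneurial-marked cells. In the 51 dividing cells of the epineurial list Sfrp4 stood at 270 CPM (221 to 326), against 3407 (3311 to 3506) in its 436 non-dividing cells. C3 stood at 293 and 2035 CPM, Clec3b at 267 and 1506, Gas6 at 32.8 and 553 and Igf1, insulin-like growth factor 1, at 381 and 1712. In the 34 dividing cells with no list Sfrp4 stood at 113 CPM (64.7 to 184), against 1212 (1118 to 1312) in 271 non-dividing cells, C3 at 106 and 495, Gas6 at 42.5 and 302 and Igf1 at 191 and 701. Clec3b had no UMI in those 34 cells and stood at 201 CPM in the 271. These unmarked groups were mixed, with smooth muscle and pericyte genes at 3941 CPM in dividing and 4858 in non-dividing cells. Immune genes stood at 255 and 1932 CPM there and Schwann cell genes at 729 and 1230. Median depth was 3476 and 1217 UMIs, and the part of these differences was not tested. In the 8 bridge-marked dividing cells Sfrp4 stood at 195 CPM (111 to 317), against 892 (780 to 1014) in 67 non-dividing cells, Gas6 at 24.4 and 373 and Igf1 at 463 and 2413. C3 was not lower there, at 427 CPM (297 to 593) and 377 (306 to 459). Among endoneurial-marked cells the levels of most of these genes lay close together. Sfrp4 stood at 140 CPM (101 to 189) in 27 dividing and 170 (145 to 198) in 154 non-dividing cells, C3 at 203 and 239, Gas6 at 16.6 and 29.7 and Igf1 at 882 and 856. The intervals of Sfrp4, C3, Gas6 and Igf1 overlapped there. Lbp differed there, with 53.2 CPM (30.4 to 86.5) against 158 (134 to 185) in endoneurial-marked cells. Gsn was also lower there, at 815 CPM (716 to 924) against 1336 (1265 to 1411), as was Dcn, at 10137 against 14654. The list of uninjured nerve fibroblast genes summed to 46577.6 CPM in dividing and 69945.5 in non-dividing endoneurial-marked cells. Ccnd1 ran the other way in epineurial-marked cells, at 335 CPM in dividing and 109 in non-dividing, while it was 552 and 571 in endoneurial-marked cells. The epineurial marker sum was itself 1329 CPM in dividing and 3584 in non-dividing cells of that list, and smooth muscle and pericyte genes were at 1185 and 348, whose part in these values was not tested.

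**Figure D5:**
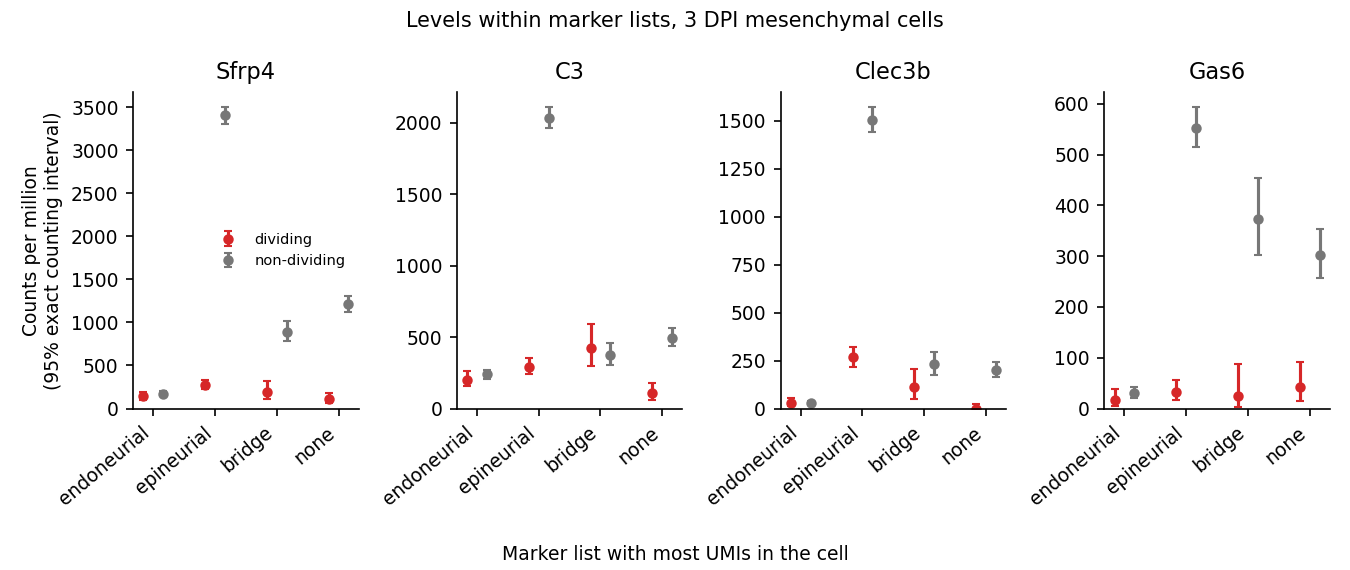
CPM (y axes from 0) of Sfrp4, C3, Clec3b and Gas6 in dividing (red) and non-dividing (grey) 3 DPI mesenchymal cells, by the marker list with most UMIs in the cell (x axis). Bars are 95% exact counting intervals. For Sfrp4 the red points lie below the grey for epineurial markers (270 against 3407), bridge markers (195 against 892) and no list (113 against 1212), and close to them for endoneurial markers (140 against 170).

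At a threshold of 2% of cells, about as many ligands were detected in dividing as in non-dividing cells with all UMIs, and fewer at equal depth. Of 143 ligands that the study tabulated in injured nerve, 110 had a UMI in at least 2% of the members and 108 in at least 2% of the non-dividing cells. At 2000 UMIs per cell the counts were 69 and 90. The threshold was met by 3 of the 122 members but took 19 of the 938 non-dividing cells, and 3 and 11 cells when thinned. At 5% of cells the counts were 81 and 69 with all UMIs and 49 and 51 at 2000 UMIs, so the order depended on the threshold. Among the 81 ligands with enough UMIs to compare, 8 were at least 2-fold higher in dividing cells and 26 at least 2-fold lower (median log2 ratio -0.58), beside 6.55% and 7.73% of all genes. The number higher was near the share of all genes. The 8 were Mif, Cxcl1, Tnfrsf11b, Il6, Sema6b, Sema7a, Cxcl2 and Pdgfa. Cxcl1, a neutrophil chemokine, stood at 759 CPM in dividing and 289 in non-dividing cells, in 50.8% and 27.1% of cells, with 1 member holding 100 UMIs. Mif, macrophage migration inhibitory factor, stood at 580 and 212 CPM. Those lower included Gas6, Sfrp4, Igf1 at 517 and 1330 CPM, and Igf2 at 3.22 and 92.4 from 3 and 293 UMIs. The immune-cell attractant Ccl2 was at 1455 and 960 CPM, below 2-fold.

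Dividing cells of the neonatal libraries had lower levels of Spp1 and Apod and higher levels of Igf2 and Mbp than the members. Over 4593 genes, 407 (8.86%) were at least 2-fold higher at 3 DPI than in both neonatal libraries and 242 (5.27%) at least 2-fold lower. Because many neonatal cells were led by the Schwann cell list, the comparison was repeated without cells led by another type, with 111 cells at 3 DPI, 37 after FACS and 79 after beads. It then gave 362 of 3795 genes higher (9.54%) and 117 lower (3.08%). Mbp, the gene of myelin basic protein, was among the 8 lowest in the first comparison, at 4.30 CPM at 3 DPI and 821 and 1142 in the neonatal libraries, and it was still at 302 and 681 CPM in the neonatal cells kept in the second, so this step did not remove all Schwann cell transcripts.

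Igf2, an imprinted growth factor gene of fetal and neonatal tissue, was lower at 3 DPI in both versions, at 3.22 CPM against 1860 after FACS and 624 after beads. Without cells led by another type, the imprinted genes Dlk1 (104 CPM against 4177 and 970), Mest (71.2 against 1872 and 636) and Cdkn1c (33.8 against 1248 and 751) were among the 8 lowest. Among the genes higher at 3 DPI in both versions were Spp1, Apod, Timp1, Trf and Sgk1. Spp1, osteopontin, stood at 3966 CPM against 13 and 8.14, and Apod, the lipid carrier apolipoprotein D, at 13559 against 160 and 271. Timp1 stood at 1101 CPM against 29.3 and 29.8. Non-dividing cells of the same libraries differed in the same direction for these genes. Spp1 at 3 DPI was 329 and 210 times the level after FACS and after beads in non-dividing cells, and 305 and 487 times in dividing cells. Apod was 29.2 and 15.2 times as high in non-dividing and 85.0 and 49.98 times in dividing cells. Igf2 was at 0.0232 and 0.0362 of the neonatal level in non-dividing and at 0.00173 and 0.00516 in dividing cells.

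Cycle genes were also higher in dividing than in non-dividing neonatal cells. The same rule on cycle genes made these groups, so this follows from the selection and is not independent evidence. Within each neonatal library the contrast of dividing with non-dividing cells was also made, without cells led by another type. Prc1 was 88.6-fold higher after FACS and 101-fold after beads. Sfrp4, Clec3b and Gas6, all lower at 3 DPI, were less alike between the libraries. Sfrp4 was at 0.357 (0.234 to 0.524) of the non-dividing level after FACS and at 0.0269 (0.000678 to 0.151) after beads, and Clec3b at 0.453 and 0.109. Gas6 was at 0.915 (0.582 to 1.38) after FACS and 0.254 (0.0683 to 0.663) after beads. Over 6882 genes measured in all 3 libraries, with all cells of the rule, 428 were at least 2-fold higher at 3 DPI and 202 of these were so in both neonatal libraries. For lower genes it was 376 and 74. How many of all 6882 genes were past 2-fold in both neonatal libraries is not given here, so these overlaps have no background to be read against. They also include the neonatal cells led by another type.

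Other dividing cells of the same library were few. Cells with a cycle sum of at least 3, a UMI of Sox10, Pecam1 or Ptprc and a mesenchymal sum under 5 numbered 13, of which 10 had Pecam1, and they had a median of 2198 UMIs. Over 3845 genes, 828 (21.5%) were at least 2-fold higher in the members and 357 (9.28%) at least 2-fold lower. Among the highest were Spp1 (3966 CPM against 62.7), Dcn (5598 against 313), Col3a1 (7343 against 564) and Loxl2, a lysyl oxidase with 1027 CPM in members and no UMI in the 13 cells (at least 16.4-fold). Among the lowest were the endothelial genes Cd93 (14.0 against 961 CPM) and Plvap (25.8 against 1149). The groups were set apart on the mesenchymal sum and on Sox10, Pecam1 and Ptprc. Genes that go with these, such as matrix and endothelial genes, thus differ by selection and are not independent evidence. With cells of any mesenchymal sum, 83 cells with a median sum of 24, the counts were 281 of 6475 higher (4.34%) and 445 lower (6.87%). Ptx3, a secreted pentraxin, and Trf, transferrin, were then among the highest, with 302 against 60.1 CPM and 624 against 132. The wider group mixes mesenchymal transcripts with those of other types.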

How the data were processed

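Single-cell transcriptomes of 4 Drop-seq libraries were used, 1 per condition. The authors deposited matrices of raw UMI counts per gene and barcode, and the build mm10 is credited to the submitters' processing notes. The libraries held 2000 to 6200 barcodes, 4513814 to 8123103 UMIs and median UMIs of 1009.5 to 1881 per barcode kept. The aligner, its version and the gene annotation were not given in the sources used here.

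Barcodes with at least 200 genes and at most 10% mitochondrial UMIs were kept, and members were selected by the rule given in the report. Doublets were not removed. Scrublet in scanpy 1.11.5 scored them and members in the top 5% were counted. UMIs were summed over cells and divided by all UMIs of the group. Intervals were exact 95% Poisson, Clopper-Pearson and, for ratios, conditional binomial intervals (scipy 1.17.1, numpy 2.4.6, pandas 2.3.3, python 3.11.15, matplotlib 3.10.9), and cover counting error only. No test was run. Ratios used genes with at least 50 UMIs over both groups and a threshold of 2-fold, and a group at 0 was set to a floor of 3 UMIs over the group. The ratio was tested on simulated data. Motif letters were searched on both strands of RefSeq windows.

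Named genes were the 12 with the highest lower bound and the 12 with the lowest upper bound of the ratio, found in at least 10% of cells of the higher group (8 each in the other comparisons), the most abundant members of each list, members past 2-fold and all markers. The members and lists were chosen with earlier results of these data known. Alternatives were other cycle and mesenchymal sums, filters, UMI minimums and thinning to 2000 or 1000 UMIs per cell. Leaving out cells led by another type, and the wider group of other dividing cells, were added after seeing the data. The 9 DPI library and the microarrays were not analysed here. Some genes that the naming rule selects are not reported here.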

Additional observations from a re-analysis of the deposited data

Results flagged for a closer look

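With all cells of the rule, the histone gene Hist1h2bc was lower in dividing than in non-dividing mesenchymal cells at 3 DPI (log2 ratio -1.97). It was higher in both neonatal libraries (log2 ratio 1.57 after FACS and 1.45 after beads), which set it apart. The difference between libraries was not tested, since each condition had 1 library. Without cells led by another type the plain ratio, not its log2, was 1.51 after FACS (0.661 to 3.06) and 4.31 after beads (2.93 to 6.26). The interval after FACS then spanned 1, so the higher level there was within counting error and only that after beads remained.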

How the results depend on the processing

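No paired analysis was possible because each condition had 1 library. Some orders turned at 2000 UMIs per cell. Ligands found in at least 2% of cells numbered 110 in dividing and 108 in non-dividing cells with all UMIs, and 69 and 90 at that depth. Endoneurial markers led in 22.1% and 16.4%, and then in 13.1% and 18.6%. The share of dividing cells at 3 DPI was 13.1% with a cycle sum of at least 2 and 7.05% with at least 5, and 7.99% and 3.51% at 2000 and 1000 UMIs per cell. After FACS it was 5.17% with a sum of at least 5, 5.10% without cells led by another type and 4.49% at 1000 UMIs. In neonatal beads it was 10.2% and 5.41% with sums of at least 2 and 5, 10.04% with at least 500 genes per cell, 6.23% without cells led by another type and 16.4% at 2000 UMIs. Genes at least 2-fold higher than in non-dividing cells numbered 270 at 2000 UMIs and 5025 with a minimum of 1 UMI. Those lower numbered 414 at 2000 UMIs, and 1235 and 1686 with minimums of 20 and 1 UMIs. These minimums and the thinning set how many genes can be compared. Epineurial markers led in 26.2% of members at 2000 UMIs and in 32.8% with at least 4 marker UMIs. Against both neonatal libraries 82 genes were higher and 43 lower at 1000 UMIs, and 117 were lower without cells led by another type. Against other dividing cells 828 genes were higher and 357 lower, and 281 and 445 with cells of any mesenchymal sum. With 1 library per condition, the spread between animals is unknown.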
